A study of Mus musculus with 8 samples.

Results

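The 10 genes described here encode carriers that move amino acids across the plasma membrane of intestinal and other cells: Slc6a14, Slc6a19, Slc6a20a, Slc7a7, Slc7a8, Slc7a9, Slc3a1, Slc3a2, Slc1a1 and Slc36a1. They were taken by symbol from a table of 41128 genes, and each had 1 row. RNA came from whole sections of the last 6 cm of the small intestine of 4 Cftr null mice (Cftr -/-, allele Cftrtm1Cam, congenic on FVB; KO below) and 4 sex-matched littermate controls (Cftr N/N, FVB; WT below), with 1 library per mouse. The antibiotic couple (KO and WT, labelled female) drank water with ciprofloxacin at 0.3 g/L and metronidazole at 0.5 g/L. The 3 untreated couples were female (couples 1 and 3) and male (couple 2). All 8 mice ate a low-fiber diet and had received an osmotic laxative, which was stopped more than 4 days before sampling. The null allele is constitutive, not limited to the epithelium, and the sources used here name no ages.

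Dietary protein reaches the absorbing enterocyte as small peptides and free amino acids. Free neutral amino acids enter through sodium-coupled carriers of the SLC6 family in the brush border, cationic amino acids and cystine enter through an exchanger made of a heavy chain (Slc3a1) and a light chain (Slc7a9), and acidic amino acids through Slc1a1. On the basolateral side, exchangers that pair the heavy chain Slc3a2 with the light chain Slc7a7 or Slc7a8 release amino acids to the blood. Slc6a14 takes up neutral and cationic amino acids with sodium and chloride, and in people the SLC6A14 locus has been associated with meconium ileus, the intestinal obstruction of newborns with cystic fibrosis. The comparisons ask how transcripts of these carriers stand in KO against WT ileum, and how the same difference stands in the couple given antibiotics.

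The promoter windows of the 3 genes with the largest differences between untreated KO and WT, taken from RefSeq (GRCm38.p6), are shown because these genes differed in opposite directions. Each window runs 5′ to 3′ on the gene's own strand, from 250 bases before the start site to 50 after it. Capitals mark a match to any of 6 motifs, named after the factors known to bind them (AP-1, ATF4, CDX, GATA, HNF4 and STAT), searched on both strands.
Slc6a14, chrX:21714650-21714949, plus strand: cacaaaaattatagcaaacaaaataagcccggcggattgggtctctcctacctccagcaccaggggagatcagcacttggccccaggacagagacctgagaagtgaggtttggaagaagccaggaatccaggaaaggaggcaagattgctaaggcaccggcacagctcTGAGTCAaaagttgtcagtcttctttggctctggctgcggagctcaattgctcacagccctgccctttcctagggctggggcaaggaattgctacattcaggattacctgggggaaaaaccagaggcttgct
Slc6a20a, chr9:123678783-123679082, minus strand: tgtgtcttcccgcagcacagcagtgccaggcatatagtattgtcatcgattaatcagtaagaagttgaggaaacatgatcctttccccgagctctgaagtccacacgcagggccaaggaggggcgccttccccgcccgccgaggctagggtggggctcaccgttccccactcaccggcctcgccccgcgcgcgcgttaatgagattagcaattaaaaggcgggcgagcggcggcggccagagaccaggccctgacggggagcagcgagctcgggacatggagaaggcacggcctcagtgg
Slc7a8, chr14:54781837-54782136, minus strand: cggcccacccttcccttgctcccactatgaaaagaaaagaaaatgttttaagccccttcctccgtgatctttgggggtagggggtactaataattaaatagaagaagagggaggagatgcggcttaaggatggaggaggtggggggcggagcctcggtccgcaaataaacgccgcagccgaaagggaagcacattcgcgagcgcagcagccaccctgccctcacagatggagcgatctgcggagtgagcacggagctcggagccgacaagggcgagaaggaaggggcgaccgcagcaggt
The Slc6a14 window held 1 match, to the AP-1 letters, with its first base at -82 from the start site. The windows of Slc6a20a and Slc7a8 held none of the 6, which says only that these letters are not in these stretches. All 10 genes had at least 1 window (15 in all). Slc3a1 held AP-1, GATA and HNF4 letters, 1 of the windows of Slc7a9 held GATA letters, and 3 of the windows of Slc7a7 held ATF4, GATA or HNF4 letters. Windows of this length were searched for 32851 start sites, and the letters TGANTCA of AP-1 were in 7.81% of them. The ATF4 letters TGATGNAA were in 3.97% of all windows, and the CDX letters TTTATG in 11.9%. The GATA letters AGATAA were in 11.2% of all windows, and the HNF4 letters CAAAGT in 14.4%. The STAT letters TTCNNNGAA were in 8.3% of all windows. No motifs overlapped in the windows printed, which hold a single match.

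The deposited values carry no unit and were read as RPKM-like values, scaled by library and gene length, which is what lets levels of different genes be compared. By the values they share, the libraries fall into 3 separately normalized sets: couples 1 and 2 (20896 genes above 0 in each library), couple 3 (11931 and 11912 in KO and WT) and the antibiotic couple (13749 and 13672). Read depth is unknown. The WT antibiotic library stands apart in that 423 genes, none of the 10, hold tied, missing or very low values, and these genes were left out wherever it was used. Cftr was 3.19 ± 0.549 in untreated KO and 10.8 ± 1.39 in untreated WT (SD, n = 3 each), and 4.94 and 13.8 in KO and WT with antibiotics. The 5 distal ileum markers (genes of bile acid uptake and signalling such as Fabp6 and Fgf15) were present in the untreated libraries, with a summed value of 1064 to 2908 in KO and 5741 to 7712 in WT. In whole tissue, fewer cells of a type and less RNA per cell cannot be told apart.

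Among the sodium-coupled apical carriers, Slc6a14 rose and Slc6a20a fell in untreated KO against WT ileum. Slc6a14 (chromosome X, 21714896 to 21742355, plus strand, GRCm38) had values of 7.94, 10.02 and 28.7 in untreated KO mice of couples 1, 2 and 3, and 0.0626, 0.0515 and 0.0807 in their WT littermates. The groups did not overlap, and the KO of couple 3 was the highest. The log2 change was 3.75 (SE 0.41, limma adjusted p = 0.00672, higher in 3 of 3 couples), on a log2(value + 1) scale that understates the change of a gene this low in WT. With a pseudocount of 0.1 it was 6.34, and without any 1 couple the adjusted p was 0.0542 to 0.109. Slc6a14 passed the filter on low values only through the KO libraries, so its entry into the test was tied to its difference.

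Slc6a20a, which carries proline and related imino acids (chromosome 9, 123634770 to 123678885, minus strand), had 19.5, 22.5 and 33.2 in untreated KO against 79.8, 107 and 92.8 in untreated WT ileum. Every KO value lay below every WT value. On the log2 scale the change was -1.88 with an SE of 0.24 (limma adjusted p = 0.0127), and the KO was lower in 3 of 3 couples. The adjusted p was 0.0541 without the WT library of couple 3, and 0.0974 to 0.136 without any 1 couple. Its neighbouring paralog Slc6a20b was far lower, listed at 0.0343, 0.0955 and 0 in untreated KO and at 0.434, 1.33 and 0 in untreated WT. How reads were split between these paralogs is not stated, so the values of both genes are uncertain. The 0 values of Slc6a20b are those of couple 3, with 11931 (KO) and 11912 (WT) genes above 0, against 20896 in couples 1 and 2. They cannot be read as a lower level than in the other couples.

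Slc6a19, the main sodium-coupled carrier of neutral amino acids in the brush border (chromosome 13, 73679745 to 73704865, minus strand), had 106, 132 and 205 in untreated KO and 192, 228 and 272 in untreated WT. The groups overlapped, since the KO of couple 3 exceeded the WT of couple 1, but the KO value was the lower one in each couple. The log2 change was -0.68 (SE 0.29), with a limma adjusted p of 0.314 without the couple in the model and 0.0296 with the couple as a block. Anpep, an aminopeptidase of the same membrane, was 1772 ± 676 in KO and 2139 ± 779 in WT (SD, n = 3 each; adjusted p = 0.829). Tmem27 (collectrin), the partner of these carriers in kidney, was at most 0.155 in any library.

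**Figure D1:**
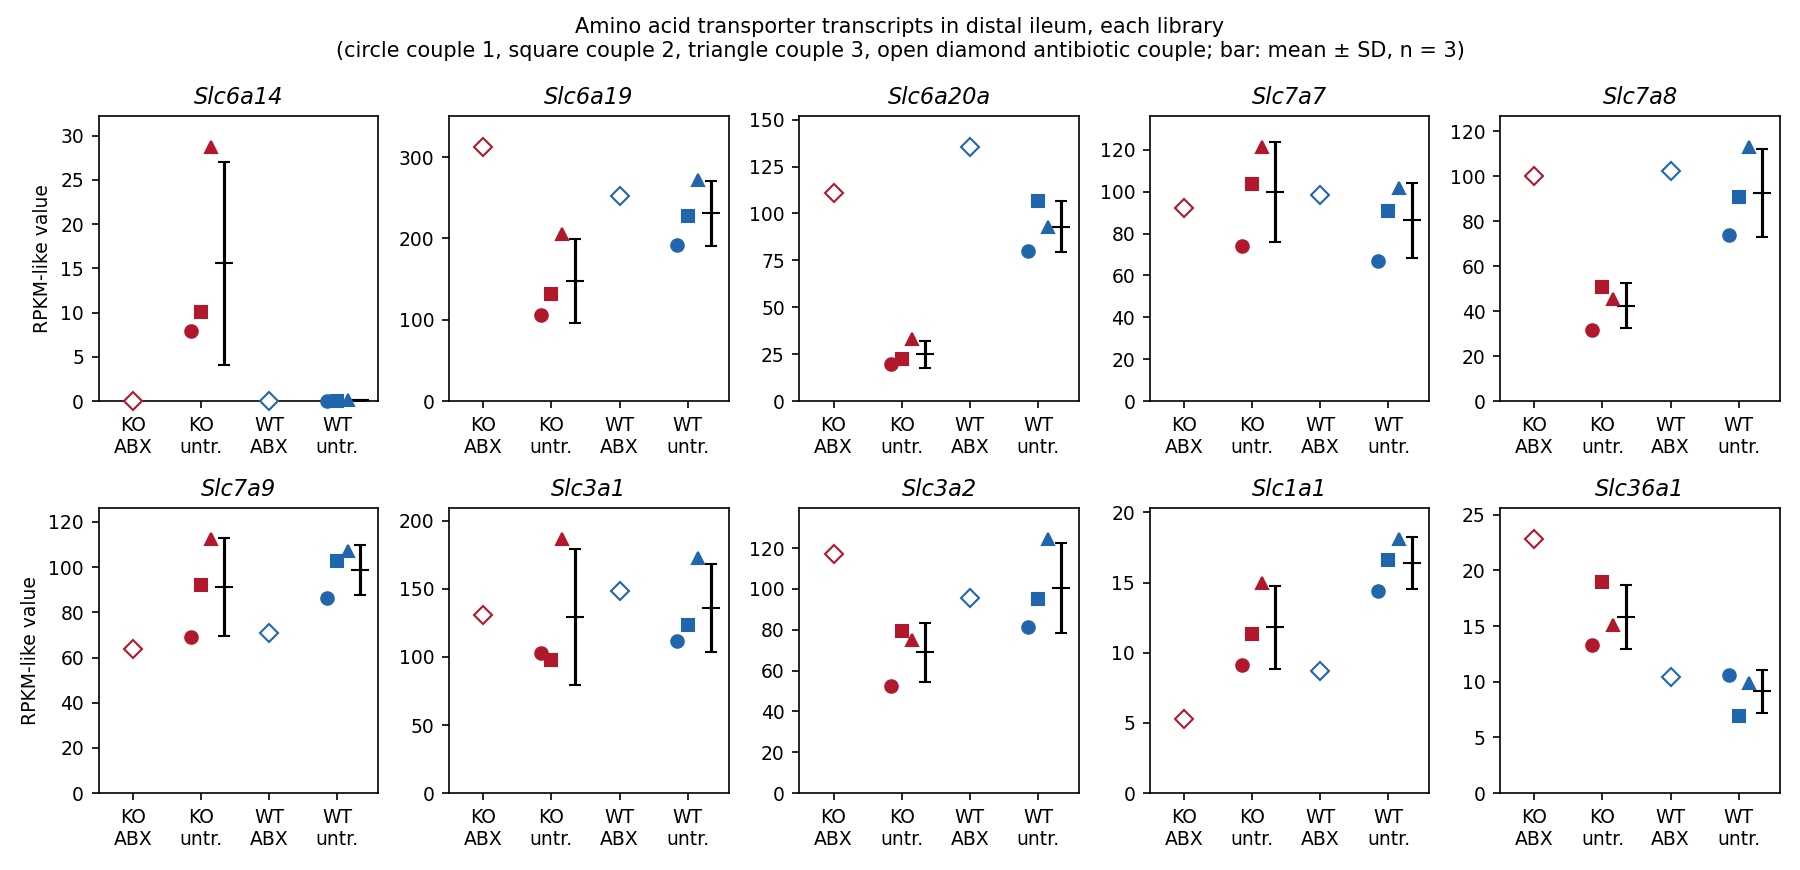
RPKM-like value of each of the 10 transporters (vertical axes, linear from 0) in KO and WT libraries with antibiotics (1 each, open diamonds) and without (3 each, with mean ± SD). In untreated KO libraries Slc6a14 lies between 7.94 and 28.7 and in all other libraries below 0.1, while Slc6a20a and Slc7a8 are lower in untreated KO than in the other libraries.

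The subunits of the apical exchanger for cystine and cationic amino acids showed no called difference. The heavy chain Slc3a1 (chromosome 17, 85028376 to 85064236, plus strand) had 103, 97.7 and 187 in untreated KO and 112, 123 and 172 in untreated WT. The light chain Slc7a9 (chromosome 7, 35448796 to 35466036, plus strand) had 69.2, 92.2 and 113 in KO and 86.4, 103 and 107 in WT. Both sets of values overlapped. The log2 changes were -0.11 for Slc3a1 and -0.13 for Slc7a9 (limma adjusted p = 0.908 and 0.836), with 95% intervals of -0.83 to 0.61 and -0.68 to 0.41. With the couple as a block these intervals narrowed to -0.40 to 0.18 for Slc3a1 and -0.40 to 0.13 for Slc7a9. The ratio of Slc7a9 to Slc3a1 was 0.739 ± 0.181 in KO and 0.743 ± 0.109 in WT (SD, n = 3 each).

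On the basolateral side the light chain Slc7a8 lay lower in untreated KO than in WT in every couple, and its alternative Slc7a7 lay slightly higher. Slc7a8, which exchanges neutral amino acids (chromosome 14, 54722209 to 54781946, minus strand), had 31.4, 50.8 and 45.2 in untreated KO against 74.0, 90.8 and 113 in untreated WT, with no overlap. Its log2 change was -1.11 (SE 0.25), with a limma adjusted p of 0.0801 without the couple and 0.014 with the block. Slc7a7, which exports cationic amino acids (chromosome 14, 54369442 to 54417780, minus strand), had 74.2, 104 and 121 in KO and 66.8, 90.6 and 102 in WT. The groups overlapped, with a log2 change of 0.20 (SE 0.26, 95% interval -0.41 to 0.80, limma adjusted p = 0.773). Their shared heavy chain Slc3a2, which also carries other light chains in many cell types (chromosome 19, 8706882 to 8723369, minus strand), had 52.3, 79.5 and 74.8 in KO and 81.6, 94.9 and 125 in WT. Its groups did not overlap, and the log2 change was -0.54 (SE 0.25, limma adjusted p = 0.348, with the block 0.0446).

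The ratio of 2 genes within a library is unaffected by a scaling factor of that library, although quantile normalization can still move it. Slc7a8 over Slc7a7 was 0.424, 0.49 and 0.372 in untreated KO and 1.11, 1.00 and 1.11 in untreated WT. Slc6a20a over Slc6a19 was 0.185, 0.171 and 0.162 in untreated KO and 0.416, 0.467 and 0.341 in untreated WT. Neither ratio overlapped between the genotypes. Each gave p = 0.1 in a two-sided exact permutation test, the smallest value that 3 against 3 libraries allow. These pairs were chosen after their values were seen, so the test cannot say whether such a separation is unusual. How many other gene pairs separate in this way was not tested. Slc7a8 over Slc3a2 gave p = 0.1 and Slc7a9 over Slc3a1 gave p = 0.9 in the same exact permutation test.

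**Figure D2:**
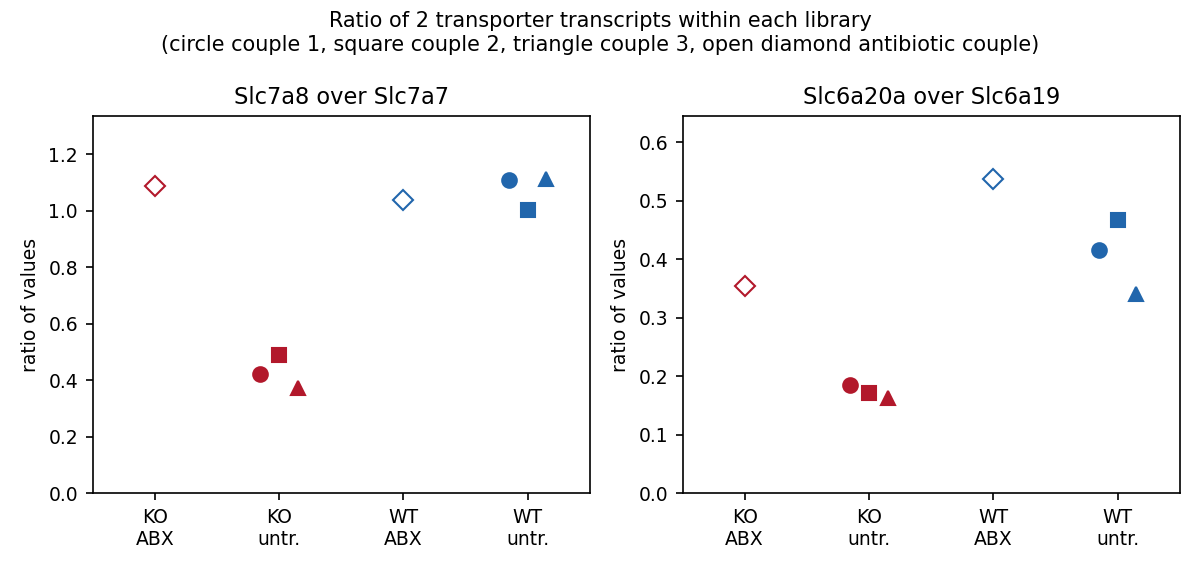
Ratio of Slc7a8 to Slc7a7 (left) and of Slc6a20a to Slc6a19 (right) within each library, on linear axes from 0. The untreated KO libraries lie between 0.372 and 0.49 on the left and between 0.162 and 0.185 on the right, below all other libraries in both panels.

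Neither the carrier of acidic amino acids nor that of small neutral ones was called without the couple in the model. Slc1a1, the brush border carrier of glutamate and aspartate (chromosome 19, 28835049 to 28913960, plus strand), had 9.16, 11.3 and 15 in untreated KO and 14.4, 16.6 and 18.1 in untreated WT. The groups overlapped by 1 KO library, and the log2 change was -0.46 (SE 0.20, limma adjusted p = 0.329, with the block 0.0411). Slc36a1, a proton-coupled carrier of small neutral amino acids found in the brush border and in lysosomes (chromosome 11, 55204350 to 55236330, plus strand), had 13.3, 18.9 and 15.1 in untreated KO and 10.6, 6.92 and 9.88 in untreated WT. Its groups did not overlap, and the log2 change of 0.73 (SE 0.21) had an adjusted p of 0.135 without and 0.0749 with the block.

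Of the 10 genes, 1 was called higher and 1 lower in untreated KO (limma adjusted p under 0.05), beside 1.15% and 1.01% of the 11717 genes tested. With the couple as a block, 1 was higher and 5 were lower (Slc6a19, Slc6a20a, Slc7a8, Slc3a2 and Slc1a1), beside 8.4% and 9.91% of all tested genes, and without any 1 couple 0 to 3 were lower, beside 126 to 303 of the 11717 genes. The ranges of the genotypes were apart for Slc6a14 and Slc36a1 (KO higher) and for Slc6a20a, Slc7a8 and Slc3a2 (KO lower), beside 10.4% and 12.1% of all tested genes. Slc6a14, which is in each of these counts of higher genes, passed the filter on low values only through the KO libraries. Its place in them is thus tied to its difference. The median log2 change over the 10 genes was -0.30, and -0.01 over all tested genes. In annotation (GENCODE M21, GRCm38), exons overlap genes on the opposite strand for Slc6a20a (Gm17120, Gm17200 and Ccr9), Slc7a7 (Oxa1l), Slc3a1 (Prepl) and Slc1a1 (4430402I18Rik). No source used here says whether counting used strand, so reads of such pairs cannot be told apart.

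By level, Slc6a19 ranked first in both genotypes, with 147 ± 51.5 in untreated KO and 231 ± 40 in untreated WT (SD, n = 3 each). In KO it overlapped the next gene, Slc3a1, and in WT it did not. In KO, Slc3a1, Slc7a7, Slc7a9 and Slc3a2 followed with overlapping neighbours, then Slc7a8 (42.5 ± 9.97) below the range of Slc3a2 and Slc6a20a (25.1 ± 7.21) overlapping Slc7a8. Slc36a1 came next, below the range of Slc6a20a, and then Slc6a14 and Slc1a1, each overlapping the gene above it. In WT, Slc3a1, Slc3a2, Slc7a9, Slc6a20a (93 ± 13.4), Slc7a8 (92.6 ± 19.6) and Slc7a7 followed in an order whose neighbours all overlapped. Slc1a1 (16.4 ± 1.86), Slc36a1 (9.13 ± 1.94) and Slc6a14 (0.0649 ± 0.0147) were last in WT, each apart from the gene above it. In KO, Slc6a20a and Slc7a8 lay below every value of Slc3a1, Slc7a7, Slc7a9 and Slc3a2, and in WT they overlapped all of these, except that Slc6a20a lay below Slc3a1.

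In the antibiotic couple the differences of Slc6a14, Slc6a20a and Slc7a8 were smaller than in any untreated couple, a comparison that rests on 1 antibiotic couple. Slc6a14 was 0.00366 in KO and 0.0296 in WT with antibiotics, so the KO value was below all 3 untreated KO values. Slc6a20a was 111 in KO and 136 in WT with antibiotics, a log2 difference of -0.29, against -1.98, -2.20 and -1.45 in untreated couples 1, 2 and 3. Slc7a8 was 100.3 in KO and 103 in WT with antibiotics, a log2 difference of -0.03, against -1.21, -0.83 and -1.30 in the untreated couples. Slc6a19 was 313 in KO and 252 in WT, and Slc3a2 was 117 in KO and 95.6 in WT with antibiotics. For these 2 genes the KO value exceeded that of its WT littermate in the antibiotic couple, while it was the lower one in each untreated couple.

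Slc7a8 over Slc7a7 was 1.09 in KO and 1.04 in WT with antibiotics, both within the untreated WT range. Slc6a20a over Slc6a19 was 0.354 in KO and 0.537 in WT with antibiotics, both above the untreated KO values.

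Slc36a1 and Slc1a1 differed in the same direction in the antibiotic couple as in the untreated ones. Slc36a1 was 22.8 in KO and 10.5 in WT with antibiotics, a log2 difference of 1.06 against 0.30, 1.33 and 0.57 in untreated couples. Slc1a1 was 5.26 in KO and 8.67 in WT, a log2 difference of -0.63 against -0.60, -0.52 and -0.26. The difference in the antibiotic couple minus the untreated mean was 0.32 for Slc36a1 and -0.17 for Slc1a1. KO minus WT had the same sign in all 4 couples for Slc36a1, Slc1a1, Slc6a20a and Slc7a8, beside 35.1% of 11520 genes. The sign in the antibiotic couple was opposite to that of all 3 untreated couples for Slc6a14, Slc6a19, Slc7a7 and Slc3a2, beside 25% of genes. On the log2(value + 1) scale, at least 2-fold differences in the antibiotic couple were seen for 1 of the 10 genes in the higher direction (Slc36a1), beside 3.29% of genes, and for 0 in the lower, beside 0.964%. On the scale of the values, Slc6a14 had a KO to WT ratio of 0.124 there, between values near 0. The subunits Slc3a1 (131 in KO and 149 in WT), Slc7a9 (63.8 and 71.0) and Slc7a7 (92.2 and 98.6) had log2 differences between -0.18 and -0.10 in the antibiotic couple.

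**Figure D3:**
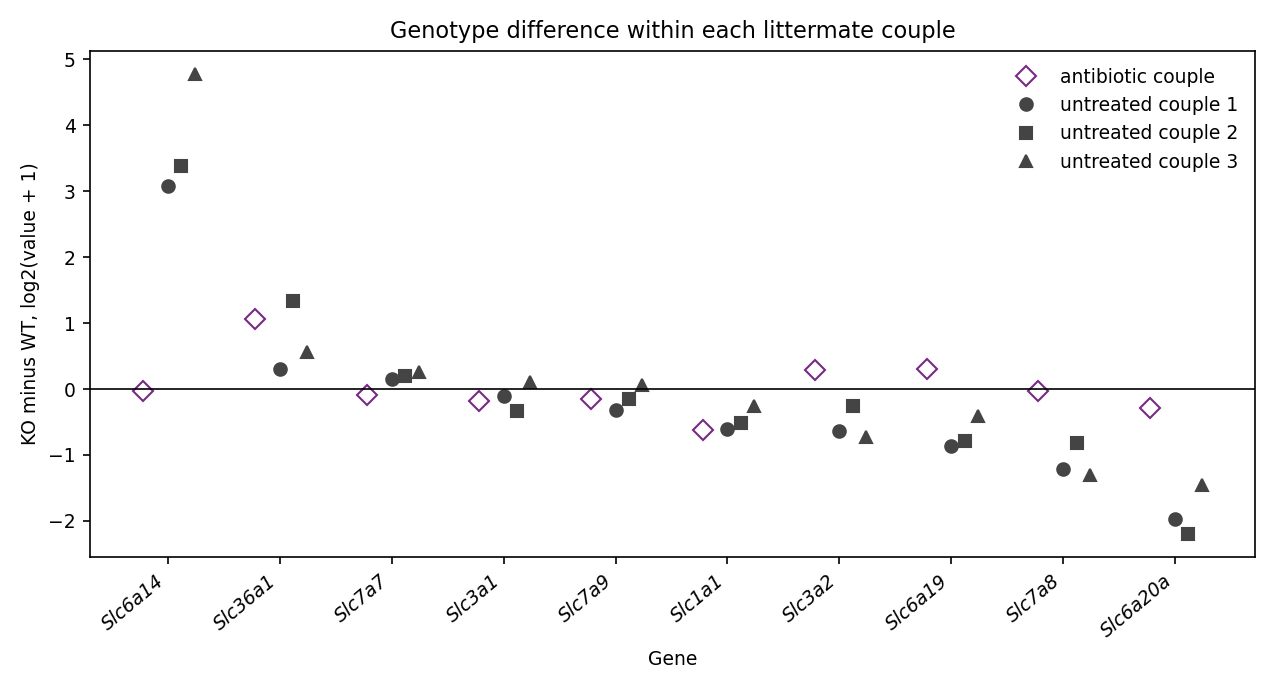
KO minus WT on the log2(value + 1) scale (vertical axis) for each of the 10 genes in the antibiotic couple (open diamonds) and in the 3 untreated couples (filled symbols). For Slc6a14 the antibiotic couple lies at -0.04 and the untreated couples between 3.07 and 4.78. For Slc36a1, Slc1a1, Slc6a20a and Slc7a8 all 4 couples lie on the same side of 0, beside 35.1% of 11520 genes.

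In the test of the antibiotic difference, Slc6a14 again passed the filter on low values only through the untreated KO libraries. Its entry was thus tied to the difference tested. The genotype difference with antibiotics minus that without was tested with limma on within-couple differences, a test in which the lone antibiotic couple is assumed to vary like the untreated ones. It was -3.79 for Slc6a14 (SE 0.70, adjusted p = 0.156), 1.59 for Slc6a20a (SE 0.32, adjusted p = 0.168) and 1.08 for Slc7a8 (SE 0.23, adjusted p = 0.181). For Slc6a19 it was 0.99 (SE 0.24, adjusted p = 0.196) and for Slc3a2 0.83 (SE 0.23, adjusted p = 0.235). None of the 10 was called, and none of all 11520 genes (0% in either direction, smallest limma adjusted p = 0.0862). At an unadjusted p under 0.05 there were 5 of the 10 (those 5 genes) and 1850 of all genes (16.1%). With each library set relative to its 10 general epithelial markers, which shifted the median of all genes by 0.12, Slc6a14 (-3.67, adjusted p = 0.00535) and Slc6a20a (1.71, adjusted p = 0.0314) passed, beside 126 genes higher and 55 lower of all 11520.

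Set against untreated mice of the same genotype, the antibiotic KO lay above the untreated KO range for 5 of the 10 genes (Slc6a19, Slc6a20a, Slc7a8, Slc3a2 and Slc36a1), beside 19.9% of 11520 genes. It lay below that range for Slc6a14, Slc7a9 and Slc1a1, beside 40.6%. The antibiotic WT lay above the untreated WT range for Slc6a20a, beside 10.3%, and below it for the same 3 genes as the KO, beside 39.7%. Relative to the untreated mean, Slc6a20a was at 4.42 times in KO and 1.46 times in WT, Slc7a8 at 2.36 and 1.11 times, and Slc6a19 at 2.12 and 1.09 times. Treatment, litter and normalization set coincide here and cannot be told apart.

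Of 43 other amino acid transporters, 19 passed the filter on low values and 0 were called in untreated KO against WT by limma without the couple, with a median log2 change of -0.02. With the couple as a block, 4 were lower (Slc6a6, Slc6a7, Slc7a15 and Slc43a2) and 1 was higher (Slc38a3), beside 9.91% and 8.4% of all tested genes. Slc6a6, the taurine carrier, had the highest mean level of the list over all 8 libraries, though not over the 6 untreated ones, where Slc43a2 did. Slc6a6 had 43.3, 49.1 and 40.9 in untreated KO and 63.7, 75.6 and 69.2 in untreated WT (log2 change -0.63, SE 0.17, limma adjusted p = 0.123, with the block 0.0171). Slc7a15, an aromatic-preferring light chain in mouse, had 18.5, 18.3 and 25.8 in KO and 57.3, 36.3 and 44.8 in WT (log2 change -1.10, SE 0.23, adjusted p = 0.0624, with the block 0.0255). In both genes every KO value lay below every WT value, and in the antibiotic couple Slc6a6 was 85.4 in KO and 84.3 in WT and Slc7a15 was 54.1 in KO and 63.9 in WT.

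Slc43a2, a basolateral carrier of large neutral amino acids, had 36.9, 48.4 and 55.8 in untreated KO and 64.0, 60.8 and 80.4 in untreated WT, and 57.4 in KO and 56.3 in WT with antibiotics. Its log2 change was -0.54 (adjusted p = 0.283, with the block 0.0386), and that of Slc6a7, a proline carrier, was -1.05 (adjusted p = 0.0801, with the block 0.0101). Slc38a3, a glutamine carrier, was at 1.73, 3.55 and 1.76 in untreated KO and 0.274, 1.15 and 0.99 in untreated WT (log2 change 0.88, limma adjusted p = 0.18, with the block 0.0335). Slc16a10, the basolateral carrier of aromatic amino acids, had a log2 change of -0.01 (SE 0.22, adjusted p = 0.992), and Slc38a2, a stress-responsive neutral carrier, of -0.16 (SE 0.19, adjusted p = 0.745).

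**Figure D4:**
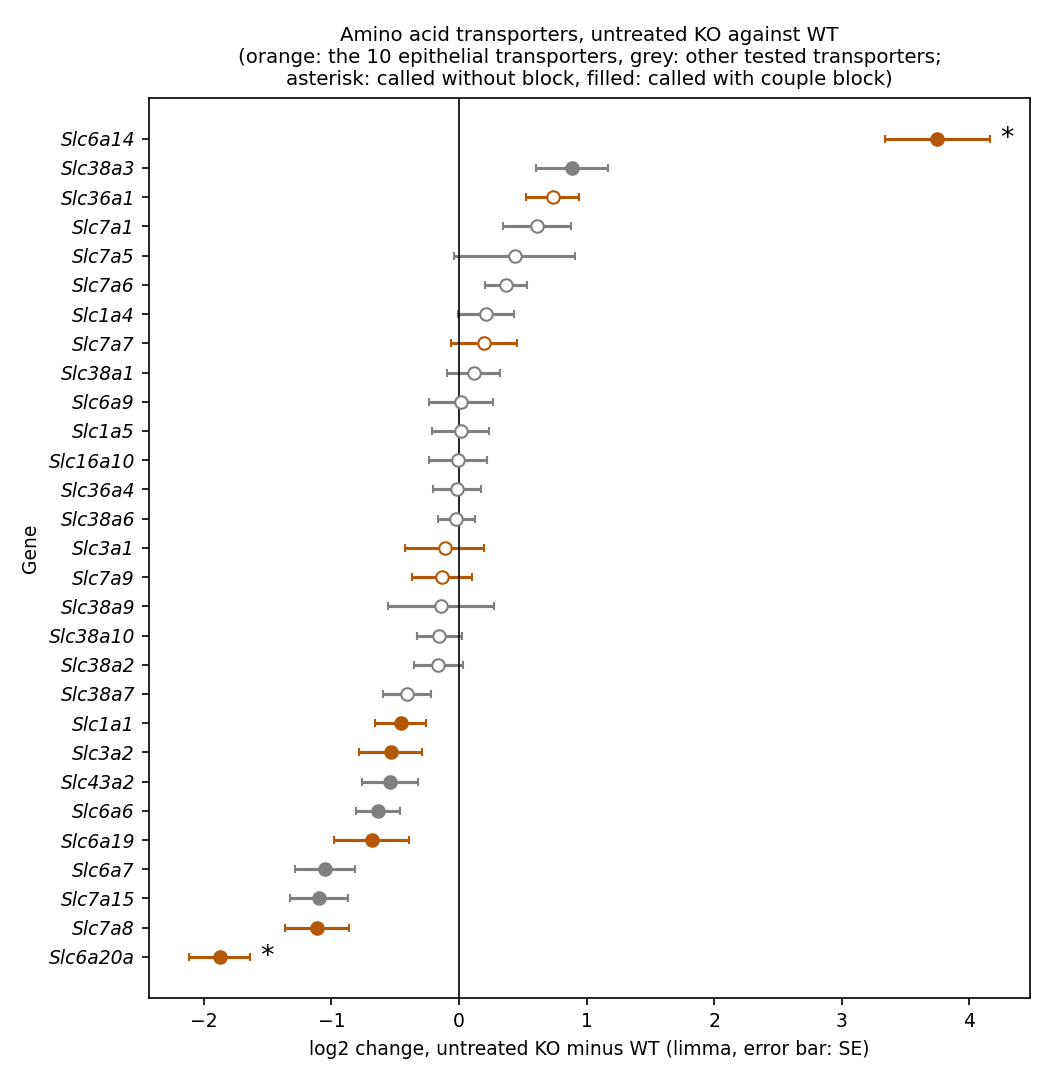
Log2 change in untreated KO minus WT (horizontal axis, limma, error bars SE) of the 10 epithelial transporters (orange) and the 19 other tested amino acid transporters (grey). Slc6a14 at 3.75 and Slc6a20a at -1.88 stand at the ends and are the genes called without the couple, while filled points are called with the couple as a block. Slc6a14 passed the filter on low values only through the KO libraries.

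Over the 4 within-couple differences, the 5 genes nearest to Slc6a14 were Duoxa2, B3galt5, Sprr2a3, Plet1 and Cyp4a29, by the mean absolute difference in log2 units. Duoxa2, the maturation factor of the epithelial oxidase DUOX2, lay 0.19 from it, with differences of -0.17 in the antibiotic couple and 3.00, 3.79 and 4.63 in the untreated couples. B3galt5, a galactosyltransferase, lay 0.48 from it, and the other 3 between 0.64 and 0.71. The gene nearest to Slc6a20a was Trpm6, a magnesium channel, at 0.14, with differences of -0.56 in the antibiotic couple and -1.83, -2.04 and -1.45 in the untreated couples. For Slc36a1, added after its values were seen, the 3 nearest genes were Iglc2, an immunoglobulin light chain constant region, at 0.06, Cd8a, a T cell co-receptor, at 0.13, and Tcrg-C2, a T cell receptor constant region, at 0.18. In couple 1, Cd8a had the opposite sign (-0.14, against 0.30 for Slc36a1).

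Marker lists gave the following values beside these results, and their part in them was not tested. The 10 mature enterocyte markers summed to 8307 to 14327 in untreated KO and 15828 to 21849.9 in untreated WT, and to 28446 in KO and 23815 in WT with antibiotics. Like Slc6a20a and Slc7a8, this sum was lowest in the untreated KO libraries. None of the 10 markers was called, and 4 were lower with the block (Alpi, Apoa4, Apob and Fabp2), beside 9.91% of all tested genes. The 10 general epithelial markers summed to 4571 to 5689 in untreated KO and 3901 to 6137 in untreated WT, and to 3650 in KO and 4677 in WT with antibiotics, with a median log2 change of -0.07 in untreated KO.

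Summed markers of neighbouring gut regions also differed between libraries, but the genes of a list did not all change alike. In untreated KO against WT, the 4 tested proximal markers had log2 changes from -1.66 to 0.08 (median 0.02). Those of the 5 distal ileum markers ran from -4.24 to 1.045, and those of the 2 tested colon markers from -0.51 to 0.90. The 5 proximal small intestine markers summed to 132 to 182 in untreated KO and 241 to 632 in untreated WT, and to 1462 in KO and 1320 in WT with antibiotics, with Pdx1 below 1 in the untreated libraries. The distal ileum sum was 700.0 in KO and 5383 in WT with antibiotics, so the KO library lay below its untreated counterparts. The 5 colon markers summed to 107 to 182 in untreated KO and 58.6 to 97.6 in untreated WT, and to 61.1 in KO and 55.4 in WT with antibiotics, with Aqp8 and Hoxb13 below 1 in the untreated libraries.

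The 8 T and NK cell markers summed to 61.2 to 76.4 in untreated KO and 24.1 to 31.3 in untreated WT, and to 44.7 in KO and 7.59 in WT with antibiotics. The 8 B and plasma cell markers in the table summed to 331 to 652 in untreated KO and 182 to 276 in untreated WT, and to 440.3 in KO and 112 in WT with antibiotics. Both sums were higher in KO than in WT in all 4 couples, as was Slc36a1, while Slc6a14 was higher in the 3 untreated couples and not in the antibiotic one. The same sign in all 4 couples was seen in 35.1% of 11520 genes, and a link of Slc36a1 to these sums was not tested. Of 16 tested genes of the amino acid response, the programme run by the factor ATF4 when amino acids are short, 2 were higher in untreated KO (Atf5, a related factor, and Asns, asparagine synthetase) and none was lower, beside 1.15% and 1.01% of all tested genes. With the block 7 were higher and 1 lower, beside 8.4% and 9.91%, and the median log2 change was 0.43.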

How the data were processed

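Polyadenylated RNA was sequenced from 8 ilea, 1 library per mouse. Per the series' design text, an Illumina HiSeq or Ion Proton instrument was used and the authors mapped reads in CLC Genomics Workbench 7.5 to GRCm38 (release 76). Neither the counting rule nor the normalization nor the instrument of each library is stated. The values the authors deposited carry no unit and were read as RPKM, scaled by library and exon length. The reasons are that they are not whole and fall with exon length (slopes of log2 value on log2 exon length -0.54 to -0.36). Their sums differed between the libraries of couple 3 and the antibiotic couple (346794 to 397082). In couples 1 and 2 the sum was 351707 in every library, so sums are no ground for this reading there. Couples 1 and 2 had identical sorted values, and couple 3 and the antibiotic couple shared most values between littermates but not with other couples. In the WT antibiotic library, 423 genes with tied, missing or very low values, none of them among the 10, were left out wherever that couple was used.

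Log2(value + 1) was analysed with limma 3.58.1 in R 4.3.3 (trend in the prior variance, Benjamini-Hochberg adjustment, threshold 0.05). Genes needed at least 3 libraries of the fit at 1 or more, and fits leaving out libraries kept those genes. The untreated model had genotype alone. Littermates share a couple number in the labels and deviated together (correlations across genes 0.62, 0.64 and 0.51), so values with couple as a block are printed where they change a call. All 10 genes are named in the untreated comparison and in the antibiotic couple. Other transporters are named if called or among the 5 of highest mean level, and those called only with the block were added after their values were seen. Genes and lists were chosen with earlier results of these data known.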

Additional observations from a re-analysis of the deposited data

Results flagged for a closer look

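In 4 of the 10 genes KO minus WT had 1 sign in all 3 untreated couples and the opposite sign in the antibiotic couple, beside 25% of 11520 genes. The difference between the antibiotic couple and the untreated couples (log2, limma) was -3.79 for Slc6a14 (adjusted p = 0.156), 0.99 for Slc6a19 (adjusted p = 0.196), 0.83 for Slc3a2 (adjusted p = 0.235) and -0.30 for Slc7a7 (adjusted p = 0.392). None passed the threshold of 0.05. For Slc6a14 the sign in the antibiotic couple rests on values of 0.00366 in KO and 0.0296 in WT, both near 0.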

How the results depend on the processing

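No single call in untreated KO against WT held under all alternatives. Slc6a14 was called higher and Slc6a20a lower with a pseudocount of 0.1, without the trend, under quantile normalization over all libraries and relative to the epithelial genes. Without the filter on low values 0 genes were called higher and 0 lower among the 10, beside 7 higher and 4 lower of 23285 genes. The limma adjusted p was then 0.13 for Slc6a14 and 0.12 for Slc6a20a. With the replicate block 1 was higher and 5 lower, and of the other transporters 1 was higher and 4 lower, beside 984 higher and 1161 lower of 11717 genes. Relative to the epithelial genes 2 of the 10 were lower, Slc7a8 being added (limma adjusted p = 0.0494), beside 104 higher and 79 lower of 11717 genes. Quantile normalization added 1 lower gene, Slc6a7, among the other transporters, beside 132 higher and 120 lower of 11717 genes.

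Leaving out 1 library gave 1 higher gene and 0 to 1 lower among the 10, beside 43 to 76 higher and 25 to 79 lower of 11717 genes. Leaving out any couple without the block gave 0 and 0, with no call among all genes. The limma adjusted p was then 0.0542 to 0.109 for Slc6a14 and 0.0974 to 0.136 for Slc6a20a. With the block and a couple left out, a setting chosen after seeing the data, 1 was higher and 0 to 3 were lower, beside 130 to 276 higher and 126 to 303 lower of 11717 genes, and of the other transporters 0 to 1 were higher and 0 to 2 lower. Slc6a20a was not called without couple 1 (adjusted p = 0.052). Directions changed for Slc3a1 and Slc7a9 alone, which were not called. Over the fits that left out libraries, the untreated change of Slc3a1 ran from -0.41 to 0.0725 and that of Slc7a9 from -0.30 to 0.0492. With the replicate block and without couple 2, Slc3a1 was at 0.00065. The antibiotic difference of Slc3a1 ran from -0.18 to 0.0417 and that of Slc7a9 from -0.11 to 0.0848, and relative to the epithelial genes they were 0.049 and 0.103. Under that scaling, which shifted the median of all genes by 0.12, 2 of the 10 genes were called for the antibiotic difference, beside 126 higher and 55 lower of 11520 genes. With the genes of tied, missing or very low values kept, 0 of the 10 were called, beside 153 higher and 103 lower of 11911 genes. Under each other setting 0 of the 10 and 0 of all genes were called. The cause of these changes was not tested. Read depth is unknown, so no counting error could be given for low values such as those of Slc6a14 in WT.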
